A study of Mus musculus with 2 samples.

Results

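The nuclear genes of the mitochondrial respiratory chain and of fatty acid beta-oxidation were followed as 43 named genes, of 27998 genes in each count matrix. The genes were chosen by symbol, and all 43 passed the minimum of 20 UMIs in every genotype comparison over whole classes. A UMI is a molecular tag that counts each captured transcript once. The respiratory chain arm held 27 genes and the beta-oxidation arm 16. Together they took 1.02% of the UMIs of the control library and 0.952% of those of the other library.

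The respiratory chain passes electrons from NADH and succinate through complexes I to IV to oxygen, with cytochrome c as the mobile carrier between complexes III and IV, and complex V uses the resulting proton gradient to make ATP. Beta-oxidation feeds it: long-chain fatty acids are carried into mitochondria by the carnitine shuttle, shortened by a cycle of dehydrogenation, hydration, a further dehydrogenation and thiolysis, and their electrons reach ubiquinone through the electron transfer flavoprotein. Both pathways are often discussed in tumour immunity, because proliferating T cells raise mitochondrial metabolism and alternatively activated macrophages are described as users of fatty acids.

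Promoter sequence was available from RefSeq for 32 of the 43 genes, on build GRCm38.p6, as windows from 250 bases before to 50 bases after the start of transcription. A pair of them is shown, because the genes concerned stand out in the values that follow. Cycs, which encodes cytochrome c, has its window at chr6:50566520-50566819 on the minus strand. The capitals mark an exact match to the core of the NRF1 motif, GCATGCGC, whose first base lies 60 bases before the start, and one to the cyclic AMP response element (CRE), TGACGTCA, 169 bases before it. NRF1 is a transcription factor known for binding genes of the respiratory chain.
Cycs: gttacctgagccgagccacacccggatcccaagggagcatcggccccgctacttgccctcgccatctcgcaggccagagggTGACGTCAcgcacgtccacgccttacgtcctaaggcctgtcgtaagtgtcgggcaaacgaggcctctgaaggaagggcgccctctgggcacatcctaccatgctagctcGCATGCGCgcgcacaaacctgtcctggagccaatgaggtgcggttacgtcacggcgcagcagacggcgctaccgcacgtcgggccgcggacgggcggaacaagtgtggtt
Hadha and Hadhb encode the alpha and beta subunits of the mitochondrial trifunctional protein, which carries out the later steps of long-chain beta-oxidation. They lie head to head on chromosome 5, with the RefSeq starts used for the windows 273 bases apart, so that 228 of the 300 bases of their windows are shared. The GENCODE annotation places the outermost starts closer, at 30155162 for Hadha and 30155248 for Hadhb. The Hadhb window is printed at chr5:30155003-30155302 on the plus strand, and its capitals mark the bases that also belong to the Hadha window, which reads the other strand.
Hadhb: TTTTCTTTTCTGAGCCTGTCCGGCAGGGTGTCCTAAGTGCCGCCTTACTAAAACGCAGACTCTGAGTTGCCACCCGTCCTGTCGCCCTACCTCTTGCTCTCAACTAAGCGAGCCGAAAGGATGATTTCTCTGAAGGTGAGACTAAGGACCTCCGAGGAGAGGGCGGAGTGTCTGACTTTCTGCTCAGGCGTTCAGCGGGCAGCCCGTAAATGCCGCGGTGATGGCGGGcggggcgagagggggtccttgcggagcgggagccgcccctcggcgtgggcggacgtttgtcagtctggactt
Matches were sought on both strands, and the matches in the Cycs window do not overlap. The NRF1 core was found in the promoters of 6 of the 32 genes (Acadm, Cycs, Etfa, Etfdh, Sdhb and Uqcrc1). Of all 27025 genes with a promoter window, 3.05% had it. The CRE was found in 2 of the 32 (Cycs and Uqcrfs1) and in 2.03% of all genes with a window. The ETS motif CCGGAAGT was found in 3 (Cpt2, Ndufs3 and Slc25a20) and in 4.31% of all genes with a window. The estrogen-related receptor motif TCAAGGTCA was found in 1 of the 32, Sdhd, and in 0.466% of all genes with a window. The YY1 motif was found in Ndufa9 and in 0.755%. The PPAR motif, a direct repeat, was in none of the 32 genes and in 0.0481% of all genes with a window. These matches describe the letters of the windows and show no binding.

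B16 melanomas grew for 14 days in female C57BL/6 mice that were 5 weeks old, and their CD45+ cells, the leukocytes, were sorted and sequenced one by one. Both genotypes carry Foxp3Cre-YFP, a Cre recombinase with a yellow fluorescent protein driven by Foxp3, the gene that marks regulatory T cells. The control has this allele alone, and the other genotype, Nrp1L/LFoxp3Cre-YFP (Nrp1L/L from here on), also has a floxed Nrp1, so the deletion is directed at cells that express Foxp3. There was 1 library per genotype, so genotype and library cannot be told apart and no difference between them could be tested. How many mice were pooled into a library is not given in the sources used here.

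The control library held 1310 barcodes with a median of 8079.5 UMIs, and the Nrp1L/L library 1301 barcodes with a median of 5334, so depth differed 1.51-fold. Only 3 barcodes occurred in both libraries. Nrp1 itself stood at 57.6 UMIs per 1000000 UMIs (CPM) in control and 24.8 in Nrp1L/L CD8 T cells, at 81.6 and 74.1 in macrophages, 23.1 and 41.5 in monocytes and 2.13 and 1.75 in NK cells. Only 3 cells of each library had a Foxp3 UMI and none of them was in the CD8 T, NK or myeloid classes, and where the floxed exons lie is not given in the sources used here, so these 3' counts do not check the deletion. Cells were sorted into classes by UMI counts of a few genes. CD8 T cells had at least 2 UMIs over Cd3d, Cd3e and Cd3g and at least 2 over Cd8a and Cd8b1. NK cells had at least 2 over Ncr1 and Klrb1c. Macrophages had at least 10 over C1qa, C1qb and C1qc, and monocytes had at least 10 of Lyz2 and fewer than 10 of the C1q genes. This gave 232 control and 384 Nrp1L/L CD8 T cells, 113 and 233 NK cells, 274 and 93 macrophages, and 327 and 142 monocytes. Cells with at least 3 UMIs over Mki67, Top2a, Birc5 and Ube2c were called cycling. They made up 43.1% of control and 23.2% of Nrp1L/L CD8 T cells, and 21.9% and 7.53% of macrophages. That share depends on depth: after every cell was thinned to 2500 UMIs and the rules were applied again, it was 17.6% and 13.7% in CD8 T cells and 8.41% and 2.5% in macrophages.

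Markers outside the class rules were highest in the class they name. The 7 NK genes checked summed to 5600 and 12804 CPM in NK cells (control and Nrp1L/L, the order used throughout) and to at most 479.6 in the other classes. The 8 macrophage genes summed to 8376 and 5106 CPM in macrophages, but also to 3897 and 3383 in monocytes, so those classes grade into each other. The 6 monocyte genes summed to 11578 and 15138 CPM in monocytes and to 3006 and 5143 in macrophages, and also to 2565 and 4141 in CD8 T cells, where Plac8 and Ly6c2 led. Of 7 T cell genes, 4 were listed in the matrices, and they summed to 1269 and 1728 CPM in CD8 T cells and to 782 and 1252 in NK cells. Genes of dendritic cells summed to 112 and 430 CPM in monocytes, of which Cd209a made 71.1 and 413, and genes of melanoma cells to 45.1 and 42.5 CPM in macrophages. Their part in the results was not tested, beyond leaving out the cells that carry them.

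A level is the sum of UMIs over the cells of a class divided by all their UMIs, as CPM, with an exact 95% Poisson interval, and a ratio carries an exact conditional interval. Both cover counting error only, since the cells of 1 library are not replicates. The reads are 3' tags, 1 UMI per molecule whatever the transcript's length.

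Summed over its 27 genes, the respiratory chain stood at 10471 CPM in control CD8 T cells (10355 to 10589), 9660 in macrophages, 9026 in NK cells and 8116 in monocytes. In the Nrp1L/L library the levels were 9098 in CD8 T cells, 9667 in macrophages, 8277 in NK cells and 8035 in monocytes. CD8 T cells thus led in the control and macrophages in the Nrp1L/L library, and monocytes were lowest in both. The log2 ratio of macrophages to CD8 T cells was -0.12 (-0.14 to -0.09) in the control library and 0.09 (0.05 to 0.12) in the Nrp1L/L library. NK cells and monocytes of the Nrp1L/L library stood close together, at a log2 ratio of -0.04 (-0.08 to -0.0013).

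The 16 beta-oxidation genes ran in another order, the same in both libraries. They summed to 1250 CPM in CD8 T cells (1210 to 1291), 1109 in NK cells, 954 in macrophages and 775 in monocytes of the control. In the Nrp1L/L library the sums were 1080, 1019, 804 and 700 CPM. The lymphoid classes therefore stood above the myeloid ones, and the difference between NK and CD8 T cells in the Nrp1L/L library was within its interval (log2 -0.08, -0.18 to 0.01). Macrophages stood below CD8 T cells by a log2 ratio of -0.39 (-0.46 to -0.32) in the control library and -0.43 (-0.54 to -0.31) in the Nrp1L/L library.

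The balance of the arms separated lymphoid from myeloid cells. For every 100 respiratory chain UMIs there were 11.9 beta-oxidation UMIs in CD8 T cells of either library and 12.3 in NK cells of either library. Macrophages had 9.88 (9.52 to 10.3) in the control library and 8.32 (7.71 to 8.97) in the Nrp1L/L library, and monocytes 9.55 and 8.71. All 4 lymphoid values exceeded all 4 myeloid values, with intervals that did not meet. The order held in non-cycling cells, where the lymphoid values ran from 12.0 to 12.3 and the myeloid values from 8.36 to 9.52.

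**Figure D1:**
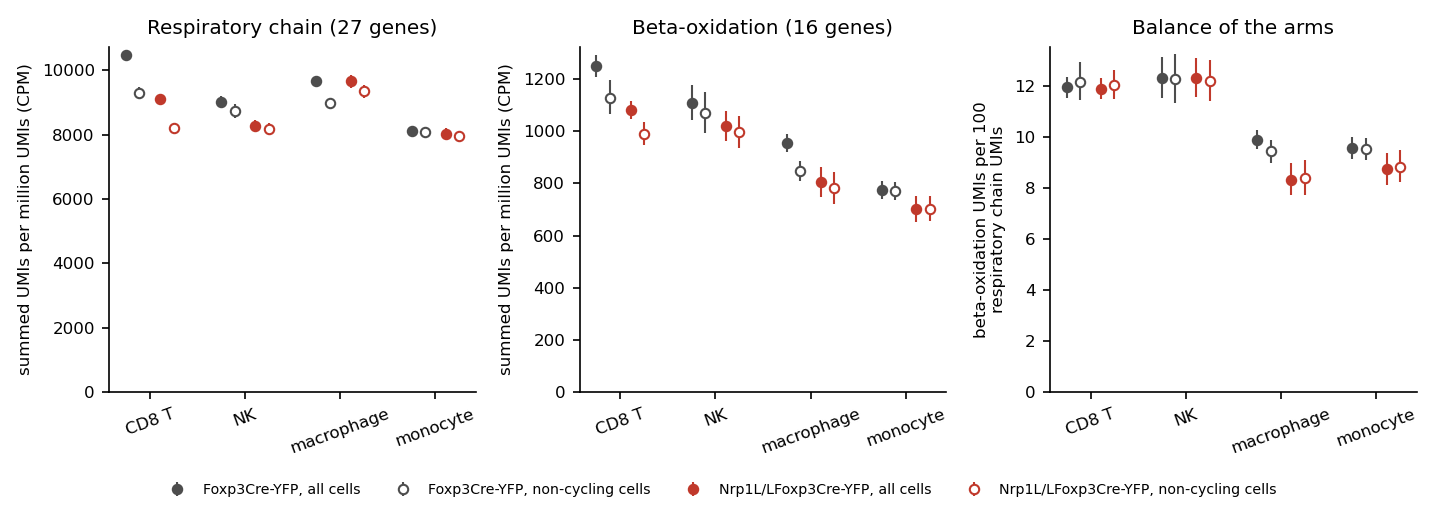
Summed level of the 27 respiratory chain genes (left) and of the 16 beta-oxidation genes (middle), in UMIs per 1000000 UMIs, and beta-oxidation UMIs per 100 respiratory chain UMIs (right), by cell class. Grey is the Foxp3Cre-YFP and red the Nrp1L/LFoxp3Cre-YFP library, filled circles are all cells and open circles non-cycling cells, and bars are exact 95% counting intervals; in the right panel CD8 T and NK cells lie at about 12 and macrophages and monocytes between 8.32 and 9.88.

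Gene by gene, 8 of the 43 stood apart between macrophages and CD8 T cells in both libraries, 6 of them lower in macrophages. A gene was counted as higher or lower when it was at least 1.5-fold apart in the same direction in both libraries, among genes with at least 20 UMIs in each library's pair of sums. Of the 43 genes, 2 were higher in macrophages, where 16.5% of all genes tested were, and 6 were lower, where 30% of all genes were. The counts are thus below the background share in both directions. The median log2 ratio of all genes was itself -0.28 in the control library and -0.35 in the Nrp1L/L library. That of the respiratory chain genes was -0.15 and 0.11, and that of the beta-oxidation genes -0.34 and -0.65.

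The lower genes were Acadl and Acadvl, the long-chain and very-long-chain acyl-CoA dehydrogenases of the first step; Hadha, Hadhb and Hadh of the later steps; and Uqcrc2, a core subunit of complex III. Acadl stood at 67.4 CPM in control macrophages against 143 in CD8 T cells, and at 80.6 against 183 in the Nrp1L/L library, log2 ratios of -1.08 (-1.33 to -0.85) and -1.18 (-1.55 to -0.83). Acadvl stood at 22.6 against 43.0 CPM in the control and 24.0 against 46.4 in the Nrp1L/L library. In both libraries these dehydrogenases were close to 2-fold lower in macrophages.

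Hadhb stood at 34.0 CPM in control macrophages against 71.3 in CD8 T cells, and at 39.2 against 71.2 in the Nrp1L/L library. Hadha stood at 39.3 against 65.5 CPM and at 28.3 against 56.8. The subunits of the trifunctional protein, whose promoters overlap in the window printed above, were thus lower together in macrophages of both libraries, at log2 ratios of -1.07 and -0.86 for Hadhb. The interval of Hadha lay below 0 in both (-1.07 to -0.41 and -1.66 to -0.41). The pair did not go together in every comparison, since by genotype in monocytes Hadha was past 1.5-fold and Hadhb was not. The part of the shared promoter was not tested. Hadh, the dehydrogenase for shorter chains, stood at 35.9 against 54.2 CPM in the control but at 14.2 against 44.6 in the Nrp1L/L library, the latter from 13 UMIs. Uqcrc2 stood at 127 against 239 CPM and at 128 against 206. The last 300 bases of Uqcrc2, Acadvl and Hadha overlap a gene on the other strand, and whether the counting used strand is not given in the sources used here.

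Higher in macrophages were Uqcrq, a small subunit of complex III, and Cpt1a, the liver-type carnitine palmitoyltransferase that admits fatty acids to mitochondria. Uqcrq stood at 533 against 343 CPM in the control and 476 against 276 in the Nrp1L/L library, log2 ratios of 0.63 (0.52 to 0.75) and 0.79 (0.62 to 0.96). Subunits of the same complex thus stood in opposite orders, Uqcrq above and Uqcrc2 below. Cpt1a stood at 19.8 against 5.80 CPM in the control, from 64 and 17 UMIs, and at 13.1 against 5.98 in the Nrp1L/L library, from 12 and 20 UMIs, where the interval of the log2 ratio reached 0 (1.13, -0.04 to 2.23).

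Several of these values depend on scaling or on cycling cells. Scaling by the trimmed mean of M-values (TMM) placed the bulk of genes at -0.24 in the control library and -0.19 in the Nrp1L/L library for macrophages over CD8 T cells, and relative to that 3 genes were lower (Acadl, Acadvl and Hadhb) and 4 higher (Uqcrq, Cpt1a, Ndufb8 and Sdhc). In non-cycling cells all 8 genes kept their calls, and Cycs joined the higher ones, 3 in all where 18% of all genes were, at 227 against 152 CPM in the control and 375 against 150 in the Nrp1L/L library. Etfdh and Decr1 joined the lower ones, 8 in all where 27.1% of all genes were.

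**Figure D2:**
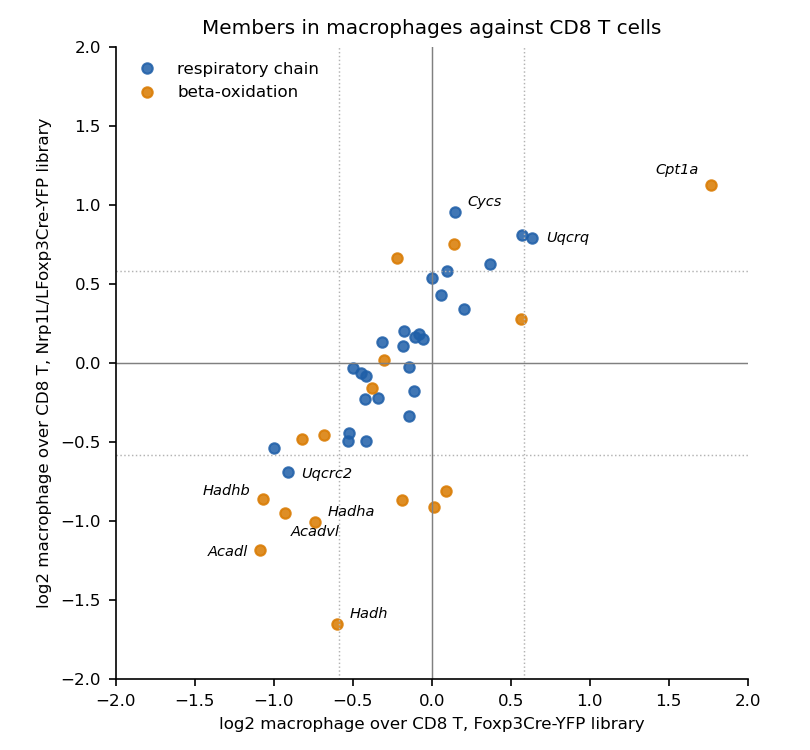
Log2 ratio of CPM in macrophages over CD8 T cells for the 43 genes, in the Foxp3Cre-YFP library (horizontal axis) and the Nrp1L/LFoxp3Cre-YFP library (vertical axis). Blue points are respiratory chain and orange points beta-oxidation genes, and dotted lines mark 1.5-fold; the 5 named beta-oxidation genes at lower left (Acadl, Acadvl, Hadha, Hadhb, Hadh) are past 1.5-fold lower on both axes, and Cycs is apart on the vertical axis only.

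Against macrophages, Slc25a20 stood higher in monocytes of both libraries, and Etfb, Ndufa5, Ndufb8 and Decr1 lower. Slc25a20, the translocase that exchanges acylcarnitine for carnitine across the inner membrane, was the 1 higher gene of 41 measured, where 9.84% of all genes were higher. It stood at 62.8 against 29.4 CPM in the control and 40.7 against 17.4 in the Nrp1L/L library, log2 ratios of 1.10 (0.72 to 1.48) and 1.22 (0.38 to 2.14). The 4 lower genes stood where 11.9% of all genes were lower, so neither count was above the background share. Ndufa5 and Ndufb8 are subunits of complex I, and Decr1 is a reductase for unsaturated fatty acids.

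Etfb, the beta subunit of the electron transfer flavoprotein, stood at 155 CPM in control monocytes against 300 in macrophages and at 108 against 219 in the Nrp1L/L library. Ndufa5 stood at 76.4 against 145 CPM and at 52.8 against 133. Both differences were near or above 2-fold, and they held when only non-cycling cells were compared (Etfb log2 -0.71 and -0.94). Among non-cycling cells Hadhb and Slc25a20 were higher, 2 genes where 9.67% of all genes were. Etfb and Ndufa5 were lower, 2 genes where 8.72% were. Ndufb8 was no longer past 1.5-fold in both libraries, and Decr1 had too few UMIs to be measured there. Decr1 rests on 23 and 10 UMIs in monocytes. With the cells that carry dendritic genes left out, Slc25a20, Etfb, Ndufa5 and Decr1 were still past 1.5-fold, Ndufb8 was not, and Hadhb was higher too. Under TMM scaling, which placed the bulk of genes at -0.12 and -0.05, Slc25a20 and Hadhb were higher and Ndufa5 and Etfb lower. After thinning, which left 41 and 13 Slc25a20 UMIs in monocytes, the gene was not counted as past 1.5-fold in both libraries. A gene short of the minimum of 20 UMIs is not counted either.

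Between NK and CD8 T cells 1 gene differed by this rule. Cpt1a was higher in NK cells of both libraries, at 20.3 against 5.80 CPM and 11.4 against 5.98, where 7.14% of all genes were higher. In the control, 13 of the 19 Cpt1a UMIs of NK cells came from the 14 cycling cells, and among non-cycling cells the gene had fewer than 20 UMIs in the control. No member was past 1.5-fold in non-cycling cells of both libraries, where 7.16% of all genes were higher and 7.09% lower. Over all cells no member was lower in NK cells of both libraries, where 10.5% of all genes were. Short of the limit, Hadhb stood at 91.7 against 71.3 CPM in the control (log2 0.36, -0.02 to 0.73) and 125 against 71.2 in the Nrp1L/L library (0.81, 0.50 to 1.12). Etfb stood lower in NK cells, at 282 against 390 CPM (-0.47, -0.67 to -0.28) and 184 against 244 (-0.41, -0.63 to -0.19).

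Over all 4 classes, 7 respiratory chain genes were highest in CD8 T cells in both libraries (among them Cox4i1 and Cox6c of complex IV) and 6 in macrophages (among them Ndufb8, Uqcrq and Cox5b). Cycs was the 1 respiratory chain gene highest in monocytes in both. Of the beta-oxidation genes, Acadl and Etfb were highest in CD8 T cells; Acadvl, Hadha and Hadhb in NK cells; Echs1, the short-chain enoyl-CoA hydratase, in macrophages; and Slc25a20 in monocytes. The remaining 13 respiratory chain and 9 beta-oxidation genes changed their highest class between libraries. The span from the highest to the lowest class had a median of 1.47-fold in the control and 1.57-fold in the Nrp1L/L library for the respiratory chain, against 2.43-fold and 2.39-fold for beta-oxidation, whose genes have fewer UMIs and so wider counting error.

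**Figure D3:**
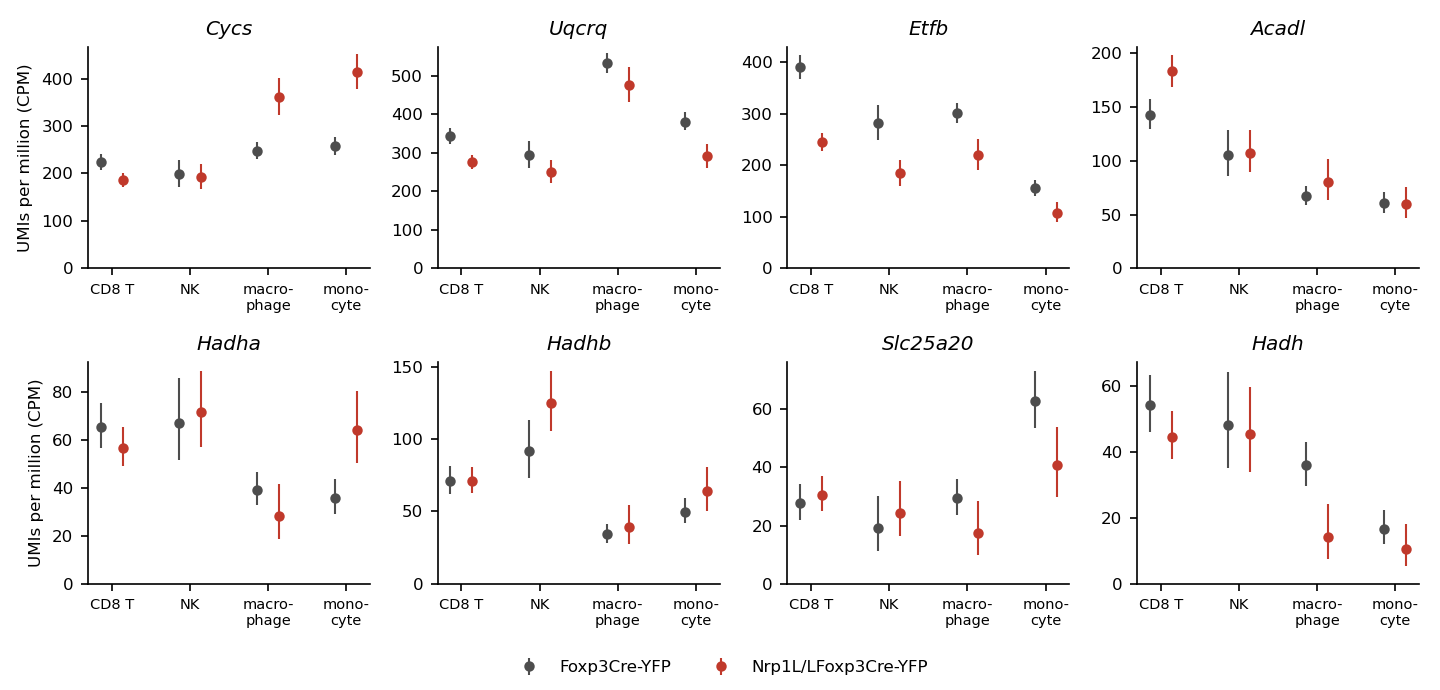
Level of 8 genes in each class, in UMIs per 1000000 UMIs, with exact 95% Poisson intervals (grey, Foxp3Cre-YFP; red, Nrp1L/LFoxp3Cre-YFP). Acadl, Hadha and Hadhb are lower in macrophages than in CD8 T and NK cells, Slc25a20 peaks in monocytes at 62.8 and 40.7, and the red Cycs points in macrophages (361) and monocytes (414) lie above the grey ones (248 and 257).

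Cycling cells carried more respiratory chain transcripts per UMI. In CD8 T cells the 27 genes summed to 11118 CPM in cycling against 9288 in non-cycling cells of the control, and to 10331 against 8220 in the Nrp1L/L library, log2 ratios of 0.26 (0.22 to 0.29) and 0.33 (0.30 to 0.36). In macrophages the log2 ratios were 0.32 and 0.37, and in NK cells 0.17 and 0.16, with only 7 to 14 cycling cells in 3 of these 4 groups. The beta-oxidation sum was higher too in CD8 T cells, at 0.22 (0.12 to 0.32) and 0.29 (0.19 to 0.38), so the balance of the arms differed by less than its interval there. Etfa and Etfb, given below, together differed by more CPM than the whole arm in the control. In the Nrp1L/L library they made up most of its difference. The median log2 ratio of the 14 beta-oxidation genes measured was -0.02 and 0.05. Cycling control macrophages had a higher balance, 10.7 against 9.42 per 100, and those of the Nrp1L/L library, only 7 cells, stood at 8.07 against 8.36 (log2 -0.05, -0.37 to 0.25).

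Depth ran alongside. Cycling CD8 T cells had a median of 17236.5 UMIs against 6024 in non-cycling cells of the control, and 13920 against 5902 in the Nrp1L/L library. Among non-cycling control CD8 T cells alone, those below the median in UMIs stood at 8001 CPM of respiratory chain and those above it at 9838. The part of cell size or depth in the difference was not tested.

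Of the 43 genes, 41 were measured in both libraries in this comparison. Higher in cycling CD8 T cells of both were 4, where 13.1% of all genes were: Cyc1 (cytochrome c1 of complex III), Cycs, Etfa and Etfb. None was lower, where 7.16% of all genes were. Etfa stood at 181 against 82.0 CPM in the control and 170 against 106 in the Nrp1L/L library, log2 ratios of 1.14 and 0.68 (0.40 to 0.96). Etfb stood at 448 against 283 and at 320 against 190. Both subunits of the electron transfer flavoprotein were thus higher in cycling cells, whereas its ubiquinone oxidoreductase Etfdh was not apart (21.1 against 21.2 CPM and 20.9 against 22.5).

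Cycs stood at 264 CPM in cycling against 152 in non-cycling control CD8 T cells and at 237 against 150 in the Nrp1L/L library, and Cyc1 at 333 against 201 and 256 against 168. Cox4i1, the complex IV subunit with the most UMIs of the 43, stood at 1831 against 1862 CPM and 1850 against 1776. The respiratory chain genes leaned one way as a list, 22 of 27 above 0 in both libraries and 1 below, with medians of 0.37 and 0.40 beside 0.13 and 0.09 over all genes. The beta-oxidation genes did not: 5 were above 0 and 5 below in both libraries among the 14 measured, with medians of -0.02 and 0.05. Slc25a20 stood lower, at 17.4 against 46.3 CPM in the control (log2 -1.41, -2.10 to -0.74) and 23.7 against 35.3 in the Nrp1L/L library (-0.57, -1.22 to 0.05).

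When each cell counted equally, 1 of the 4 (Etfb) stayed past 1.5-fold in both libraries, and at a limit of 6 UMIs for cycling 2 did (Cyc1 and Cycs). After thinning to 2500 UMIs, which left 33 and 50 cycling cells, the genes higher in both libraries were Cyc1, Ndufv1 and Hadha. Slc25a20 was lower in both under TMM scaling. In macrophages the genes higher in cycling cells of both libraries were Hadhb and Etfb, where 10.5% of all genes were, and none of the 43 was lower, where 8.81% were. In NK cells they were Ndufa5 and Etfb, where 8.08% were, and again none was lower, where 9.88% were. Etfb was therefore higher in cycling cells of each of these classes, at 402 against 256 CPM in control macrophages and 412 against 233 in control NK cells.

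**Figure D4:**
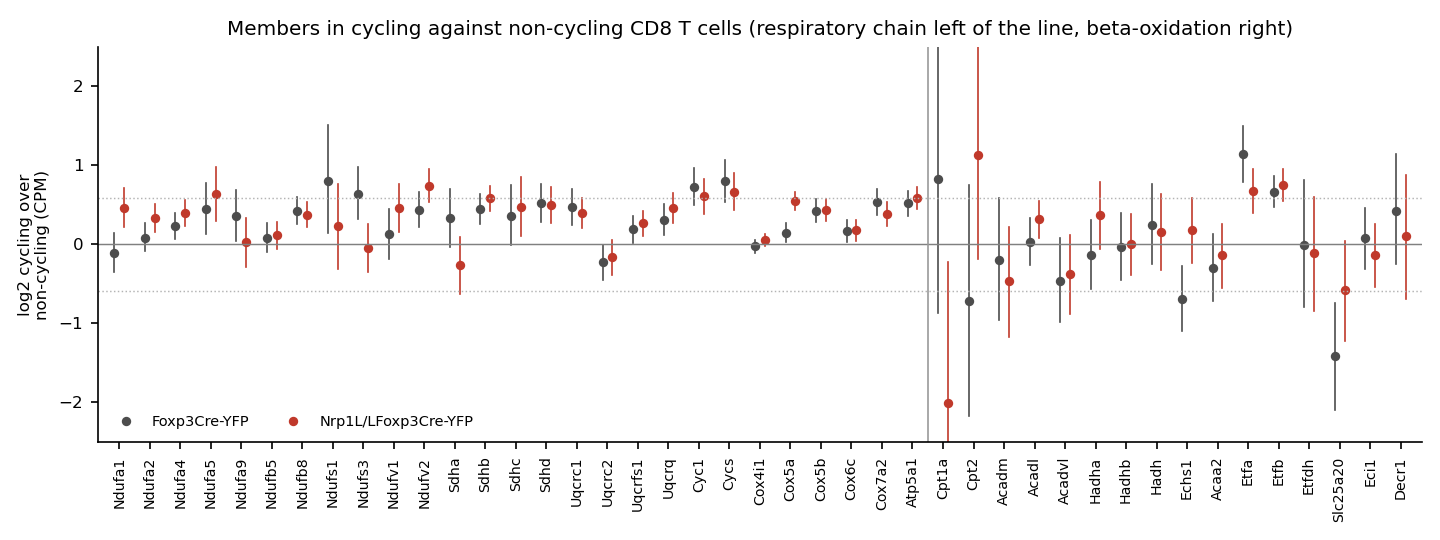
Log2 ratio of CPM in cycling over non-cycling CD8 T cells for the 43 genes, with exact 95% counting intervals drawn up to 2.5 in either direction (grey, Foxp3Cre-YFP; red, Nrp1L/LFoxp3Cre-YFP). Dotted lines mark 1.5-fold; Cyc1, Cycs, Etfa and Etfb exceed it in both libraries, and respiratory chain points mostly lie above 0 while beta-oxidation points scatter around it.

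Between the genotypes, at full depth, both arms stood lower in lymphoid cells of the Nrp1L/L library. In myeloid cells the 16 beta-oxidation genes did, while the interval of the 27 respiratory chain genes included 0. In CD8 T cells the respiratory chain went from 10471 to 9098 CPM (log2 -0.20, -0.23 to -0.18) and beta-oxidation from 1250 to 1080 (-0.21, -0.28 to -0.14). In NK cells the log2 ratios were -0.13 (-0.17 to -0.08) and -0.12 (-0.24 to -0.0007). In macrophages the respiratory chain stood at 9660 and 9667 CPM (0.00, -0.03 to 0.04) while beta-oxidation stood at 954 and 804 (-0.25, -0.36 to -0.13). In monocytes the ratios were -0.01 (-0.05 to 0.02) and -0.15 (-0.27 to -0.03). Whether classes differ in the genotype ratio was not tested.

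The ratios were also taken in non-cycling cells, and the part of the cycling share in them was not tested. In non-cycling cells the respiratory chain ratio was -0.18 (-0.21 to -0.14) in CD8 T cells and 0.06 (0.02 to 0.10) in macrophages, and the beta-oxidation ratio in macrophages was -0.11 with an interval that reached 0 (-0.25 to 0.02). The balance in macrophages differed by -0.25 (-0.37 to -0.13) over all cells and -0.17 (-0.30 to -0.04) in non-cycling cells, and in monocytes by -0.13 (-0.25 to -0.01) and -0.11 (-0.23 to 0.01). In cycling CD8 T cells the respiratory chain ratio was -0.11 (-0.14 to -0.08). With cells thinned to 2500 UMIs and the classes assigned again, which left 78 and 200 of the 113 and 233 NK cells, the beta-oxidation ratio in NK cells was 0.13, from 188 and 529 UMIs. When NK cells were thinned but kept their classes, beta-oxidation stood at 1030 CPM for the 113 control cells and 1040 CPM for the 233 Nrp1L/L cells. The lower value at full depth was thus already absent after thinning alone. These values carry no interval, and the part of the new class assignment in the ratio of 0.13 was not tested.

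In CD8 T cells 3 of the 43 genes were at least 1.5-fold lower in the Nrp1L/L library, where 14% of all genes were, and none was higher, where 16.8% were. They were Etfb, Ndufa5 and Decr1. Etfb stood at 390 CPM in the control library and 244 in the Nrp1L/L library (log2 -0.67, -0.80 to -0.54). Ndufa5 stood at 136 and 88.9 (-0.62, -0.84 to -0.39) and Decr1 at 30.7 and 18.0 (-0.77, -1.27 to -0.29). Among non-cycling CD8 T cells Ndufa5 and Echs1 were lower, 2 genes where 13.3% of all genes were, and Cpt1a, from 4 and 17 UMIs, higher, where 19.3% were; Etfb stood at 283 and 190 CPM there. Among cycling CD8 T cells Sdha and Decr1 were lower, where 13.7% were, and Cpt2 higher, where 16.2% were. The respiratory chain difference over all cells was small and broad: 25 of 27 genes lay below 0, with a median of -0.26 beside 0.00 over all genes. The genes with the most UMIs of each complex stood at -0.31 (Ndufb8, complex I), 0.03 (Sdhb, complex II), -0.10 (Uqcrfs1, complex III), -0.03 (Cox4i1, complex IV) and -0.18 (Atp5a1, complex V).

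The beta-oxidation genes of CD8 T cells did not move as a block. The acyl-CoA dehydrogenases summed to 208 CPM in the control library and 254 in the Nrp1L/L library (log2 0.29, 0.14 to 0.44), led by Acadl at 143 and 183 (0.36, 0.18 to 0.54). The electron transfer flavoprotein genes summed to 557 and 399 CPM (-0.48, -0.59 to -0.38). Higher and lower roles thus stood side by side. Etfb alone held 1143 of the 3665 UMIs of the arm in the control and 817 of 3611 in the Nrp1L/L library. Eci1, an isomerase for unsaturated fatty acids, stood at 87.0 and 67.0 CPM, and Cpt1a at 5.80 and 5.98 from 17 and 20 UMIs.

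In NK cells 5 genes were lower, where 14.2% of all genes were, and 1 was higher, where 22.6% were. The higher gene was Eci1, at 57.6 CPM in the control library and 99.6 in the Nrp1L/L library (log2 0.79, 0.31 to 1.29). Among the lower, Acaa2, the thiolase of the last step, stood at 78.9 and 38.4 CPM (-1.04, -1.61 to -0.48) and Etfb at 282 and 184 (-0.61, -0.88 to -0.34). With cells thinned and the classes assigned again, Etfb stood at 0.13, from 32 and 90 UMIs. With the classes kept, 34.5% and 27.9% of NK cells had an Etfb UMI after thinning, beside 61.9% and 36.5% before it. Cpt2, the inner-membrane transferase of the shuttle, stood lower from 14 and 6 UMIs, and higher with cells thinned and classes assigned again (0.96, from 1 and 5 UMIs). With the classes kept, the thinned shares of cells with a Cpt2 UMI were 3.54% and 1.72%, 4 cells in each library. Cpt1a (20.3 and 11.4 CPM) and Etfdh (26.7 and 14.9) were past 1.5-fold with intervals that included 0. Among non-cycling NK cells Acaa2 was lower, 1 gene where 13.3% of all genes were, and Eci1 and Acadm higher, 2 genes where 21.8% were. No respiratory chain gene was past 1.5-fold over all cells (Cox4i1 0.05, Atp5a1 -0.14, Sdhb -0.25), although under TMM scaling Ndufa5, Ndufb8 and Cox5b were lower.

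In macrophages at full depth 5 genes were lower, where 23.2% of all genes were, and 2 were higher, where 14.4% were, all of them in beta-oxidation. Hadh stood at 35.9 CPM in the control, from 116 UMIs, and at 14.2 in the Nrp1L/L library, from 13 (log2 -1.34, -2.29 to -0.51). Acaa2 stood at 68.0 and 34.9, from 220 and 32 UMIs (-0.96, -1.55 to -0.42). Acting in the last steps of the cycle, these enzymes belong to a role group that summed to 279 and 191 CPM (-0.55, -0.79 to -0.32). In non-cycling macrophages 4 genes were lower (Hadh, Acaa2, Slc25a20 and Decr1), where 19.8% of all genes were, and 3 higher (Cycs, Cpt2 and Acadm), where 15.4% were. The ratios there were -0.97 (-2.05 to -0.03) for Hadh and -0.97 (-1.63 to -0.35) for Acaa2. Acadm, the medium-chain dehydrogenase, stood higher, at 24.4 and 41.4 CPM (0.76, 0.16 to 1.34).

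Of the other macrophage genes past 1.5-fold, Cpt1a (19.8 and 13.1 CPM), Etfdh, Slc25a20 and, on the higher side, Cpt2 had intervals that included 0. When macrophages with melanoma genes were left out, Hadh, Acaa2 and Slc25a20 remained lower and neither Acadm nor Cpt2 remained higher. With cells thinned to 2500 UMIs and the classes assigned again, Cycs and Eci1 were higher. Ndufs1, Uqcrfs1, Cpt1a, Hadha, Hadh and Acaa2 were lower there, so the calls were no longer confined to beta-oxidation. Cycs was also past 1.5-fold higher under TMM scaling and with equal cell weight. The macrophages of the libraries also differed in class markers outside the rule (8376 and 5106 CPM over 8 genes, all 8 detected in both) and in red cell genes (27.2 CPM over 4 genes, and 0 in the Nrp1L/L library). The part of that difference in the beta-oxidation values was not tested. The 27 respiratory chain genes stood close to the control, with a median of -0.04 beside -0.11 over all genes, and with Cox4i1 at 1704 and 1599 CPM and Atp5a1 at 406 and 379.

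In monocytes 7 genes were lower, where 17.8% of all genes were, and 2 were higher, where 16% were. Cycs and Hadha were the higher ones, Hadha at 35.9 and 64.1 CPM (log2 0.83, 0.38 to 1.29). Acadvl stood lower, from 113 and 28 UMIs (-0.82, -1.47 to -0.21), Eci1 at 42.3 and 23.4 (-0.86, -1.52 to -0.24) and Slc25a20 at 62.8 and 40.7 (-0.63, -1.12 to -0.15). The shuttle as a group summed to 80.9 and 48.5 CPM (-0.74, -1.19 to -0.31), with all 3 of its genes below 0. Cpt1a, from 30 and 7 UMIs, Cpt2, Hadh and Etfdh were lower with intervals that included 0. Genes of dendritic cells differed here, at 112 and 430 CPM, with 7 of 7 and 5 of 7 genes detected. Without the cells that carry them Cycs and Hadha remained higher, 9 genes were lower, Slc25a20 was no longer past 1.5-fold (-0.45) and Etfb was. Among non-cycling monocytes Cycs and Hadha were higher, where 16.3% of all genes were, and 7 genes lower, where 17.6% were.

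**Figure D5:**
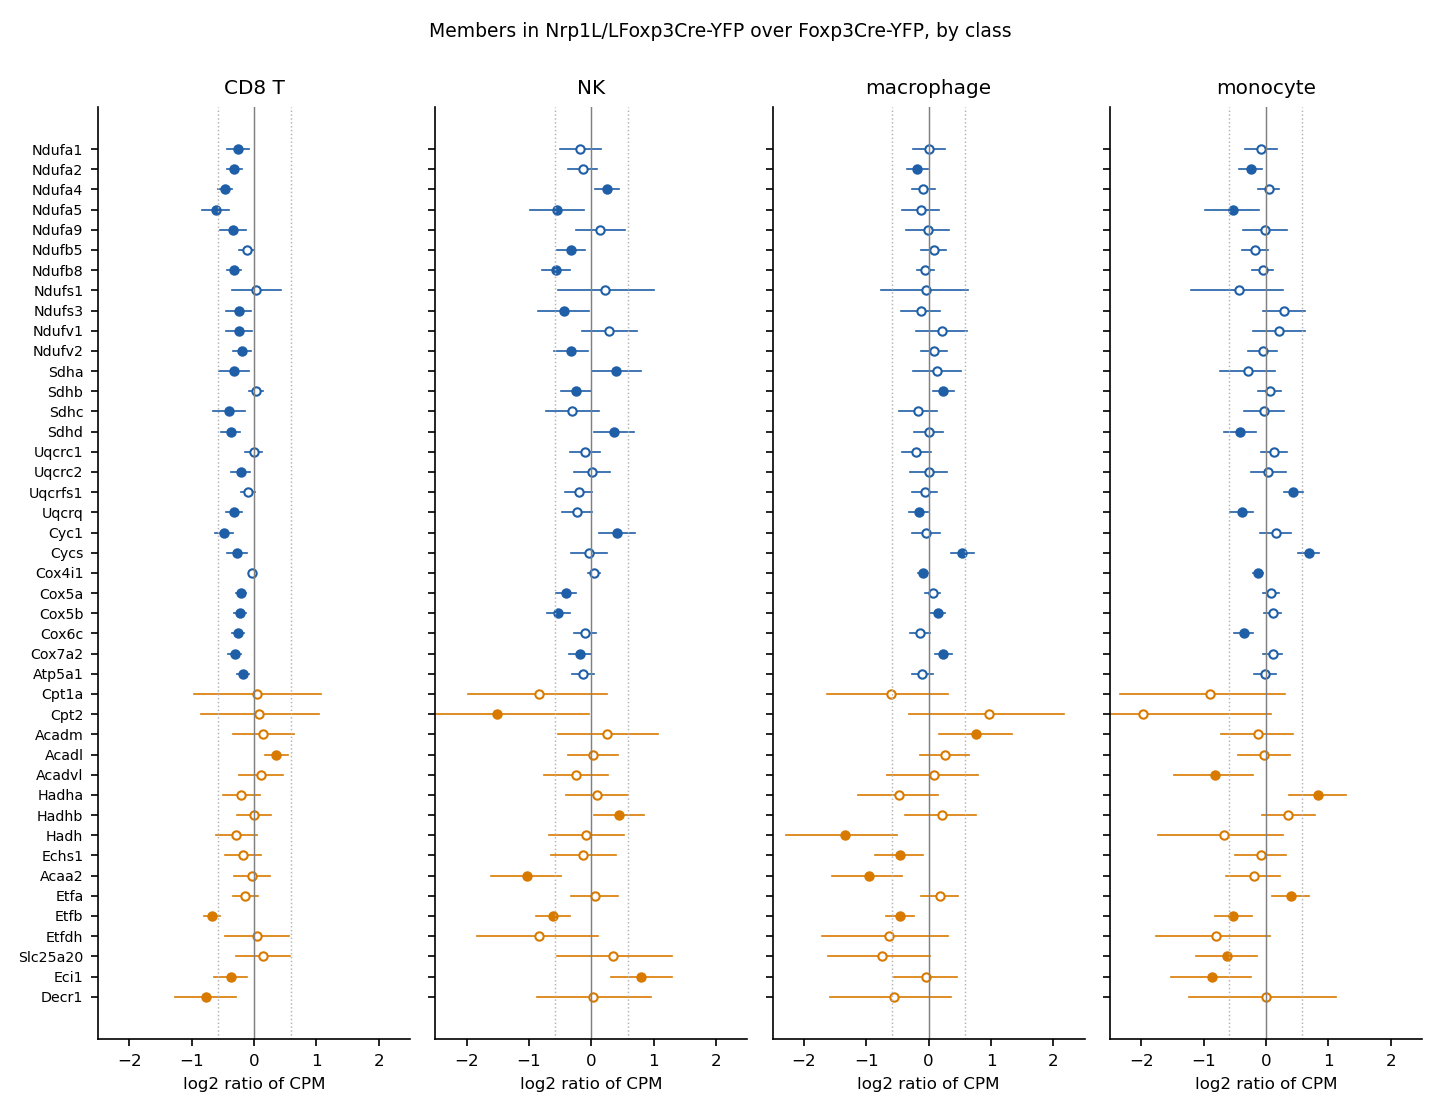
Log2 ratio of CPM in the Nrp1L/LFoxp3Cre-YFP over the Foxp3Cre-YFP library for the 43 genes in 4 classes, all cells, with exact 95% counting intervals drawn up to 2.5 in either direction (blue, respiratory chain; orange, beta-oxidation). Filled points have intervals that exclude 0 and dotted lines mark 1.5-fold; in CD8 T cells 25 of 27 blue points lie left of 0, and Cycs lies to the right in macrophages and monocytes.

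Cycs and Etfb were followed across the classes, and were singled out after their values were seen. Cycs stood at 248 CPM in control macrophages and 361 in Nrp1L/L macrophages (log2 0.54, 0.35 to 0.73), and at 257 and 414 in monocytes (0.68, 0.51 to 0.86). In CD8 T cells it stood at 224 and 186 (-0.27, -0.43 to -0.11) and in NK cells at 198 and 192. Its higher level in the Nrp1L/L library was thus seen in the myeloid classes, and in non-cycling macrophages the ratio was 0.72 (0.51 to 0.93). With cells thinned to 2500 UMIs and classes assigned again it was 0.70 in macrophages and 0.58 in monocytes. In non-cycling CD8 T cells it stood at 152 and 150. The share of cells with a Cycs UMI, after thinning to 2500 UMIs, was 44.2% and 57.0% in macrophages and 44.6% and 59.2% in monocytes, against 35.8% and 32.6% in CD8 T cells. Before thinning the shares were 83.2% and 86.0%, 74.6% and 87.3%, and 69.8% and 58.9%.

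Etfb stood lower in the Nrp1L/L library in all 4 classes, at -0.67 in CD8 T, -0.61 in NK, -0.46 (-0.68 to -0.24) in macrophages and -0.52 (-0.82 to -0.23) in monocytes. In non-cycling cells the ratios were -0.57, -0.47, -0.35 and -0.58, each with an interval that excluded 0. The value in NK cells with cells thinned and classes assigned again, given above, had the other sign. Under the same steps Etfb stayed lower in CD8 T cells, from 146 and 173 UMIs in 188 and 366 cells, and in monocytes, from 128 and 36 in 297 and 135. In macrophages, with 161 and 49 UMIs in 226 and 80 cells, it was lower by less than at full depth, outside the interval given above. The Etfb gene lies on chromosome 7, and its last 300 bases also hold a microRNA gene, Mir7051, on the same strand. Etfa, its partner subunit, stood at -0.14 in CD8 T cells, 0.05 in NK cells, 0.18 in macrophages and 0.40 (0.10 to 0.69) in monocytes.

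Cpt1a, often used as the marker of fatty acid oxidation, was sparse in every class. A UMI was found in 3.88% of control and 3.13% of Nrp1L/L CD8 T cells and in 9.12% and 7.53% of macrophages. After thinning the shares in macrophages were 4.38% and 1.08%, the latter 1 cell of 93. At this depth no genotype difference in Cpt1a was detectable in any of the 4 classes.

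Other genes of the same organelle were followed as lists. The 53 other nuclear genes of the respiratory chain and ATP synthase stood at summed log2 ratios of -0.20 in CD8 T and NK cells, -0.07 (-0.09 to -0.04) in macrophages and -0.09 (-0.12 to -0.06) in monocytes. In the myeloid classes these lay below the values of the 27 members, with intervals that did not meet. Over all genes, 14% were lower in CD8 T cells, 14.2% in NK cells, 23.2% in macrophages and 17.8% in monocytes, and 16.8% were higher in CD8 T cells. In CD8 T cells 4 of the 52 measured were lower and none higher: Uqcrb (-0.97), Ndufab1 (-0.75), Uqcr11 (-0.71) and Atp5g1 (-0.64), of complexes III, I, III and V. Cox8a, with the most UMIs, stood at 1012 and 972 CPM there. In macrophages 1 was lower, Atpif1, the inhibitor of ATP synthase, at 576 and 356 CPM. In monocytes 2 were lower, Uqcrb at 125 and 51.9 CPM and Ndufa11 at 209 and 138. In NK cells 4 of 51 were lower, among them Atpif1 (-0.81), Ndufv3 (-0.64) and Atp5g1 (-0.61).

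The mitochondrially encoded genes stood lower by more than these lists in CD8 T cells, macrophages and monocytes, and not in NK cells. Their sum was 2144 CPM in control and 1479 in Nrp1L/L CD8 T cells (log2 -0.54, -0.59 to -0.48), 1688 and 1206 in macrophages (-0.48), 1213 and 907 in monocytes (-0.42) and 1752 and 1636 in NK cells (-0.10). Only 6 of the 13 had enough UMIs to be measured, and mt-Nd3, mt-Nd4l and mt-Atp8 were at 0 throughout. Of the 6, 2 were at least 1.5-fold lower in CD8 T cells, where 14% of all genes were. In macrophages 2 were, where 23.2% were, and in monocytes 1 was, where 17.8% were. None was at least 1.5-fold higher. In CD8 T cells and in macrophages 1 of the 6 lay above 0, at 0.42 and 0.43. mt-Cytb, of complex III, stood at 528 and 315 CPM in CD8 T cells and 438 and 260 in macrophages. Since the share of mitochondrial transcripts also varies with the state of a cell at capture, it is given as a measurement of these libraries.

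Genes of the tricarboxylic acid cycle summed to 1743 and 1433 CPM in CD8 T cells (log2 -0.28, -0.34 to -0.22) and 1269 and 994 in macrophages (-0.35, -0.46 to -0.25). In macrophages 4 of 14 were lower, where 23.2% of all genes were, and none was higher, where 14.4% were: Dlst (34.9 and 10.9 CPM), Idh3a (81.0 and 39.2), Idh2 (127 and 64.3) and Fh1 (72.3 and 43.6). Mdh2, malate dehydrogenase, stood at 410.5 and 318 CPM there. In CD8 T cells 2 of 14 were lower (Idh2 and Fh1), where 14% of all genes were. In NK cells 3 of the 13 measured were lower (Cs, Sucla2 and Fh1), where 14.2% were. No gene of the cycle was higher in CD8 T cells, where 16.8% of all genes were, or in NK cells, where 22.6% were. None was past 1.5-fold in monocytes.

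The other fatty acid oxidation genes were peroxisomal and accessory ones and further mitochondrial ones such as Acads. They stood slightly higher in CD8 T cells (summed log2 0.14, 0.07 to 0.21) and lower in macrophages (-0.18, -0.30 to -0.06). Crot, the peroxisomal carnitine octanoyltransferase, stood at 30.7 and 57.4 CPM in CD8 T cells (0.90), and Ech1, with the most UMIs, at 272 and 369. Of the regulators, Hif1a, the oxygen-regulated transcription factor, stood at 77.4 and 156 CPM in CD8 T cells (log2 1.01, 0.78 to 1.24) and at 64.3 and 68.7 in macrophages. Pparg, a nuclear receptor of lipid metabolism, stood at 26.6 and 49.0 CPM in macrophages (0.88, 0.33 to 1.42) and 13.6 and 28.6 in monocytes (1.07, 0.34 to 1.79), whereas Ppara had 0 UMIs in all 4 classes of both libraries. Nrip1, a corepressor of nuclear receptors, stood at 12.9 and 30.3 CPM in monocytes, and Mlycd, malonyl-CoA decarboxylase, at 21.6 and 7.63 in macrophages, from 70 and 7 UMIs. Ppargc1a, the coactivator of mitochondrial biogenesis, had at most 2 UMIs in any class of a library.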

How the data were processed

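Single-cell RNA was measured in 2 libraries, 1 per genotype. Per the submitters' processing notes, Cell Ranger 1.3 and the mm10 build were used; other settings are not given in the sources used here. The authors deposited UMI counts per gene and barcode, all of them whole numbers, with no normalization. All intervals are at 95% confidence and cover counting error only.

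Doublets were scored in each library with Scrublet in scanpy 1.11.5. Its own calls were used in the control library (8 barcodes, 0.611%); in the Nrp1L/L library it called 3 (0.231%), so the highest 26 were left out. Of 2611 barcodes 2577 were kept, 1798 of them in a class; 23 that met the rules of 2 classes were left out, and the others met none. Genotype comparisons need at least 30 cells of a class in each library. Counts were summed per class and library and expressed per 1000000 UMIs. Ratios carry exact conditional binomial intervals and shares Clopper-Pearson intervals (scipy 1.17.1). There is no test and no p-value. The ratio, interval and scaling steps were tested on simulated data.

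The members, gene lists, role groups, class rules and motif letters were chosen with earlier results of these data known. Named are, per comparison, the member with the most UMIs in each role, Cpt1a, and each member at least 1.5-fold apart whose interval excludes 0. Of other lists, the member with the most UMIs and up to 3 per direction with the largest fold are named, with at least 50 UMIs. Genes were placed with GENCODE on GRCm38; all 43 matched by identifier. The last 300 bases of Ndufs3 and Cox6c have a copy of at least 97% identity over 100 bases that is not in the matrices, and those of 6 members overlap a gene on the other strand (Ndufa2, Uqcrc2, Cox5a, Cox6c, Acadvl and Hadha). The alternatives kept doublets or cells of 2 classes, thinned every cell to 2500 UMIs, scaled by TMM or by the median of ratios, weighted cells equally, changed the UMI minimum or the cycling limit, or left out cells with dendritic or melanoma genes.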

Additional observations from a re-analysis of the deposited data

Results flagged for a closer look

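In 3 cases the genotype ratio took opposite signs in a pair of classes, with both counting intervals excluding 0; with 1 library per genotype the difference between classes was not tested. For Cycs the log2 ratio was 0.68 in monocytes and -0.27 in CD8 T cells, a difference of 0.952. Within each cycling state of CD8 T cells the interval of Cycs included 0. The ratio was -0.15 (-0.36 to 0.05) in cycling and -0.02 (-0.30 to 0.27) in non-cycling CD8 T cells. For Eci1 it was 0.79 in NK cells and -0.86 in monocytes, a difference of 1.65. The enzymes for unsaturated fatty acids, of which Eci1 is 1 of 2, stood at 0.62 in NK cells and -0.67 in monocytes, a difference of 1.29. With cells thinned to 2500 UMIs and the classes assigned again, the Eci1 ratio was 1.35 in NK cells, from 9 and 59 UMIs, and -0.085 in monocytes, from 21 and 9.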

How the results depend on the processing

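With 1 library per genotype no replicate could be left out, and depth limits every value from few UMIs. No paired analysis was possible because each genotype has 1 library and no test was run. Of 258 alternatives for sums, balances and counts, 216 stayed within their limits, and of 144 for named genes 138 did. For counts, only the number of genes was compared, so a count could stay within its limit while its genes changed. After thinning, the genes higher in macrophages by genotype were Cycs and Eci1 in place of Cpt2 and Acadm, and this count was held as unchanged. The tally of counts therefore does not show that the same genes were called. Thinning to 2500 UMIs with the classes assigned again gave a respiratory chain ratio of -0.15 in CD8 T cells, a beta-oxidation ratio of 0.13 in NK cells, with the sign reversed, and -0.27 in monocytes, and a balance of 0.27 in NK cells. It left 2 members higher in CD8 T, 5 in NK and 1 in monocytes by genotype, and 0 higher in NK than CD8 T cells. Under it Cpt2 (0.96) and Etfb (0.13) had the other sign in NK cells, whereas with the classes kept the thinned shares of NK cells with a UMI were lower in the Nrp1L/L library for both, with intervals that overlapped. TMM and median-of-ratios scaling gave respiratory chain ratios of -0.19 and -0.19 in NK cells and 0.047 and 0.061 in macrophages. Under both, 8 members were lower in NK cells and 3 in macrophages by genotype, 4 were higher and 3 lower in macrophages than CD8 T cells, 2 were higher and 2 lower in monocytes than macrophages, and 1 was lower in cycling CD8 T cells. With equal cell weight the respiratory chain ratio in macrophages was 0.041, 1 member was higher in CD8 T cells by genotype and 1 in cycling CD8 T cells, 2 were higher and 2 lower in monocytes than macrophages, and 0 were higher in NK than CD8 T cells. A minimum of 50 UMIs left 2 members lower in NK cells and 1 higher in macrophages by genotype, 1 higher in macrophages than CD8 T cells and 0 higher in NK than CD8 T cells. Without cells with melanoma genes 0 members were higher and 3 lower in macrophages by genotype. Without cells with dendritic genes 2 were higher in monocytes than macrophages. With cells of 2 classes kept, 1 was lower in cycling CD8 T cells. A cycling limit of 6 UMIs left 2 higher and 1 lower there. Where a value moved, the cause was not tested.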

Other observations

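Cells that met no class rule, 344 control and 412 Nrp1L/L cells, gave further values. Their respiratory chain stood at 8677 CPM (8572 to 8784) and 7580 CPM (7463 to 7699), and their beta-oxidation at 1002 and 980. In each library the 51 and 25 cycling cells among them had more respiratory chain than the non-cycling ones, at 10993 against 7676 CPM and 9527 against 7250. There were 11.5 and 12.9 beta-oxidation UMIs per 100 respiratory chain UMIs, nearer to the lymphoid than to the myeloid classes. These cells were not sorted further.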
